A study of Mus musculus with 8 samples.

Results

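The genes described here are processed pseudogenes that collected reads in mouse retina. They were chosen by their raw counts, as the rows of the count table with the biotype processed pseudogene and a sum of at least 400 counts over the 8 libraries. The rule found 210 of the 9497 processed pseudogenes in a table of 54532 genes. The study compared 4 retina libraries labelled sIVs, small intracellular vesicles, with 4 labelled PBS, phosphate-buffered saline, and replicates were numbered 1, 3, 4 and 5 in each group. All RNA was poly(A) selected and made into strand-marked libraries read as 150 bp pairs. The labels call each library a biosample but name no strain, age, disease model, dose or time, and do not say whether each came from its own animal, so p-values measure the spread between these samples, which may be technical.

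A processed pseudogene is a copy of a messenger RNA that was reverse transcribed and inserted into the genome, usually by the enzymes of LINE elements. It therefore lacks the introns of the gene it was copied from, called the parent gene, and often carries remains of a poly(A) tail. Most such copies have no promoter of their own, although some are transcribed from neighbouring promoters. Abundant housekeeping messages, such as those of ribosomal proteins and glycolytic enzymes, have left many copies in mammalian genomes. A spliced messenger RNA of the parent and a young copy can be almost the same sequence, so a read from one can also match the other. How the counting treated reads with several matches is not given in the sources used here.

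The stretches below show how close the copies with the most counts were to their nearest protein-coding gene. They are GENCODE M21 transcript sequences (GRCm38) written 5′ to 3′ as the RNA strand with T for U. Each stretch is 75 bases long, lies in the coding part of the gene and crosses 1 exon junction of it, which the copy holds without an intron. Capitals mark the bases at which the copy and the gene differ. Gm13394, the member with the most counts, copies Gapdh, which encodes the glycolytic enzyme glyceraldehyde-3-phosphate dehydrogenase, and the stretch lies at chr2:28934227-28934301 on the minus strand.
Gm13394: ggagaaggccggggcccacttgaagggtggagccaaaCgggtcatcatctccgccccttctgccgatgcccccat
Gapdh: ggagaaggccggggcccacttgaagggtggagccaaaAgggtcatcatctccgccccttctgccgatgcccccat
The single capital is the only mismatch between Gm13394 and the Gapdh transcript over its 1000 bases. Gm9522 is a more diverged Gapdh copy with 56 mismatches, shown at chr15:39181173-39181247 on the plus strand, where 7 of them fall.
Gm9522: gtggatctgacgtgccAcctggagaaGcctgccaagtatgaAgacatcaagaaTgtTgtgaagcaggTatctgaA
Gapdh: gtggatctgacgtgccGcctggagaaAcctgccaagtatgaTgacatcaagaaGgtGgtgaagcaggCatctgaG
Gm15772 copies Rpl26, a protein of the large ribosomal subunit, with 2 mismatches in 438 bases, 1 of them at chr5:3236570-3236644 on the plus strand.
Gm15772: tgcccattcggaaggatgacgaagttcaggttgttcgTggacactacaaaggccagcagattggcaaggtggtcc
Rpl26: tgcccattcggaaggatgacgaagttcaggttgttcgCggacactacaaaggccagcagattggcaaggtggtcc
Atp6v0c-ps2 copies Atp6v0c, the proteolipid subunit of the vacuolar proton pump, with 1 mismatch in 465 bases, at chr6:37806155-37806229 on the plus strand.
Atp6v0c-ps2: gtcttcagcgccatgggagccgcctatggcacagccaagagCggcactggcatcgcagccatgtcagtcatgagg
Atp6v0c: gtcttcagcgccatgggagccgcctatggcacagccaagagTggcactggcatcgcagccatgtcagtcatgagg
Gm12918, the member with the smallest p between the groups, equals the Rpl13 transcript over all of its 636 bases, here at chr4:10848459-10848533 on the plus strand.
Gm12918: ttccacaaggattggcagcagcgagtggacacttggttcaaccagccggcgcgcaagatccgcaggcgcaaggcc

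The libraries held 13803958 to 16622259 counts. The library labelled sIVs replicate 4 stood apart from the other 7. The summed level of 4 markers of the retinal pigment epithelium was 363 CPM (counts per standard library size after TMM scaling) there and 3.78 to 39.3 CPM elsewhere. Blood markers summed to 24.1 CPM there against at most 13.8 CPM, and microglia markers to 110 CPM against at most 87.6 CPM. Ganglion cell markers summed to 508 CPM there against 339 to 374 CPM, Mueller glia markers to 3230 CPM against 2770 to 3000 CPM, and amacrine markers to 491 CPM against 593 to 658 CPM. Rod photoreceptor markers summed to 26700 to 52300 CPM in all 8 libraries, and lens markers did not pass 0.405 CPM in any. All listed markers of the pigment epithelium, blood, microglia and lens had counts in at least 1 library. The part of these cell types in the results below was not tested, and each main result is given with and without sIVs replicate 4.

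The counts were unevenly spread over the members. Together they held 613901 counts, 85.6% of all counts on processed pseudogenes, while 3339 others held fewer and 5948 held none. Gm13394 and Gm4735 together took 28.2% of the members' counts and the 10 highest took 47.6%, while 105 members had fewer than 1000 counts and the median was 997.5. Just inside the threshold were Gm8494 with 413, Gm17828 with 411 and Gm14539 with 408 counts. Just outside were Gm4617 with 398, Gm14681 with 391 and Gm11560 with 390. At 200 counts the rule would have taken 332 genes and at 800 counts 126. The members lay on 19 chromosomes, most on chromosome 7 with 22, and their median length was 655.5 bases.

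The rule did not use sequence, and the members were closer to a present-day gene than the other processed pseudogenes were. By blastn all 210 members matched a protein-coding transcript, on the plus strand, with a median identity of 99.4%. The median was 93.1% for processed pseudogenes with fewer than 400 counts but at least 1, and 86.4% for those with none. Of the 562 processed pseudogenes at 99% identity or more, 133 were members, which is 23.7%. The share was 3.75% of 1654 between 95 and 99%, 0.207% of 1937 between 90 and 95%, and 0.218% of 5047 under 90%. Among the members 36 equalled a protein-coding transcript over their whole length and 15 were under 95% identity to any. For 208 members long enough to hold a window of 150 bases, the read length, a median of 52.5% of such windows occurred unchanged in a transcript of another gene. In 39 members every window did and in 28 none did. Counts of the near-identical members are therefore uncertain, because they may hold reads of the parent or the parent may hold theirs.

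The members had 174 distinct nearest genes. For the 15 members under 95% identity the nearest gene is the closest match and may not be the source. The largest family was the cytosolic ribosomal proteins, the structural proteins of the translating ribosome, with 60 members, 42 nearest genes and 27.9% of the members' counts. That is 28.6% of the members, near the 25.1% that such copies make up among all processed pseudogenes with a match. Copies of glycolytic genes were 11 members but held 30.9% of the counts, mostly through Gm13394 and Gm4735. Translation factors gave 11 members with 4.97% of the counts, mitochondrial energy genes 11 with 3.43%, RNA binding and splicing genes 12 with 3.85%, and chromatin proteins 10 with 2.73%. The remaining 95 members were on none of the lists for these families and held 26.2%. Families were assigned by gene symbol, so members nearest to related genes of other names, such as Fau and Hdac1, were among the 95. Only the split into ribosomal protein genes and all others was planned, and the lists for the other families were not. Gapdh had 5 copies among the members and Hmgb1, a chromatin protein, had 4, so members can share a source sequence and are not independent of each other.

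Gm13394 reached 809, 733, 823 and 705 CPM in PBS replicates 1, 3, 4 and 5 and 801, 791, 1160 and 782 CPM in the sIVs replicates in the same order. The groups overlapped, and sIVs replicate 4 was the highest library while the other 7 lay between 705 and 823 CPM. Its log2 fold change, sIVs over PBS, was 0.20 with a standard error of 0.16, and the edgeR quasi-likelihood test gave an adjusted p of 0.810. Without sIVs replicate 4 the log2 fold change was 0.04. Gapdh itself was counted at only 135, 34.9, 86.7 and 22.4 CPM in PBS and 33.5, 28.0, 153 and 28.7 CPM in sIVs. The copy thus held 92.8% of the counts of the pair, and the row for Gapdh varied more between libraries than the row for its copy. Per length the order was the same, with a mean FPKM (counts scaled by gene length and library total) of 809 for Gm13394 and 15.4 for Gapdh. Gm9522, the diverged Gapdh copy in which no window of 150 bases occurred in another gene, had 24.2, 34.4, 44.1 and 30.1 CPM in PBS and 33.5, 46.2, 14.3 and 39.0 CPM in sIVs. It was lowest in sIVs replicate 4, the library in which Gm13394 and Gapdh were highest.

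Gm4735 copies the glycolytic enzyme enolase, with 99.8% identity to Eno1b, and 99.6% to Eno1. It had 498, 574, 548 and 579 CPM in PBS and 501, 564, 1040 and 631 CPM in sIVs, and only replicate 4 and 5 of sIVs lay above all PBS libraries. Its mean FPKM of 464 was close to the 452 of Eno1b and the 381 of Eno1. The log2 fold change was 0.32 with a standard error of 0.22 and fell to 0.04 without sIVs replicate 4.

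Atp6v0c-ps2 had 158, 160, 173 and 171 CPM in PBS and 157, 167, 262 and 184 CPM in sIVs. Its parent Atp6v0c was counted at 16.1, 14.6, 16.9 and 14.6 CPM in PBS and 14.5, 14.6, 7.60 and 12.8 CPM in sIVs, so parent and copy went opposite ways in sIVs replicate 4. The copy held 92.8% of the pair's counts, between 90.8% and 97.2% per library. Gm15772 had 140, 154, 153 and 160 CPM in PBS and 161, 135, 350 and 176 CPM in sIVs. Rpl26, its nearest gene, was counted at a mean of 0.962 CPM, which left 99.5% of the pair's counts on the copy. Only 9.69% of the 150-base windows of Gm15772 occurred unchanged in a transcript of another gene. Rpl3-ps1, a copy of the large-subunit protein gene Rpl3, had 157, 153, 167 and 146 CPM in PBS and 147, 146, 279 and 178 CPM in sIVs. Here the parent held the larger part, with 268 CPM, and the copy had 39.0% of the pair's counts.

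**Figure D1:**
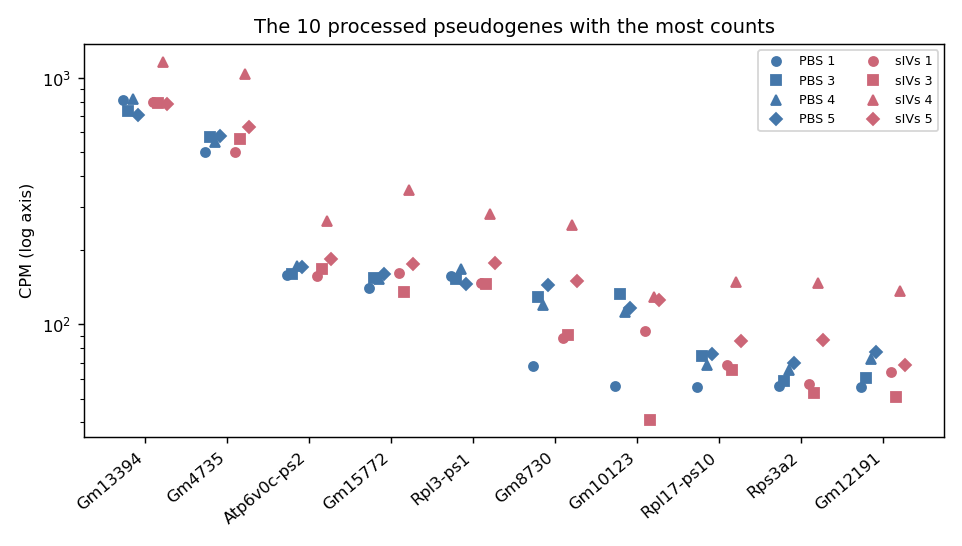
CPM on a log axis of the 10 processed pseudogenes with the most counts, 1 point per library, PBS in blue and sIVs in red, with a symbol for each replicate number. The red triangle, sIVs replicate 4, is the highest point for every gene but Gm10123, where PBS replicate 3 reached 133 CPM.

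The other 5 of the 10 members with the highest levels copy a cyclophilin and 4 ribosomal protein genes. Gm8730 copies Rplp0, a protein of the ribosomal stalk, and ranged from 68.0 to 252 CPM with 48.4% of the pair's counts. Gm10123 equals part of Ppia, the prolyl isomerase cyclophilin A, over its 490 bases and ranged from 41.1 CPM in sIVs replicate 3 to 133 CPM in PBS replicate 3. Rpl17-ps10 ranged from 55.8 to 149 CPM, Rps3a2 from 52.5 to 147 CPM and Gm12191, a copy of Rpl30, from 50.6 to 136 CPM. In the last 3 the highest library was again sIVs replicate 4.

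Among the members the counted level of the copy was weakly related to that of the gene it resembles. Spearman's rho between the mean FPKM of 209 members and of their nearest genes was 0.12, a description across genes that share libraries and sequence. The members were chosen for high counts, and the gene's row may lack reads placed on the copy. This rho therefore does not measure how copies relate to the gene's expression. The median CPM of the nearest gene was 79.4 for the members. It was 55.9 for processed pseudogenes with fewer than 400 counts but at least 1, and 51.5 for those with none. In 69 of the 209 members the copy exceeded the gene in FPKM. The copy's median share of the pair's counts was 10.3%, and in 29 of 210 pairs it was 50% or more. Gm13841, with 29.8 CPM against 1.14 CPM for Rpl29, was among those with 96.3%.

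**Figure D2:**
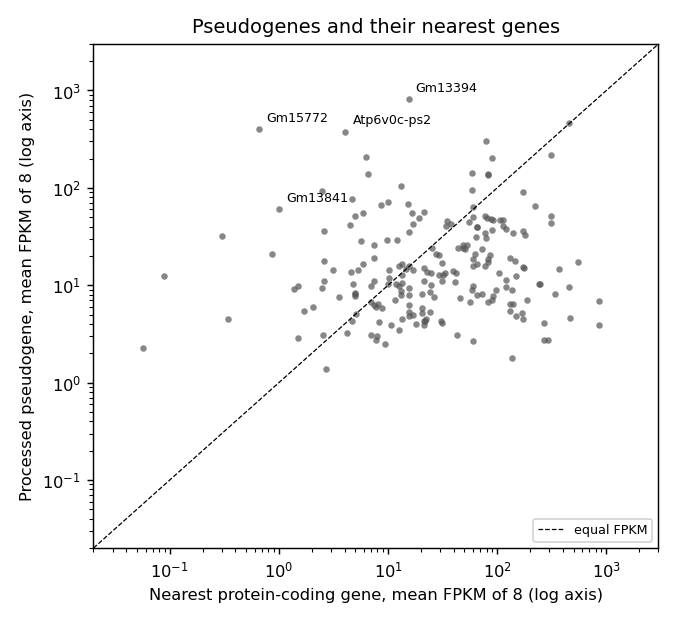
Mean FPKM over the 8 libraries of each processed pseudogene (vertical, log axis) against that of its nearest protein-coding gene (horizontal, log axis), 1 point per pseudogene with a gene value above 0 and a dashed line at equality. Gm13394, Gm15772, Atp6v0c-ps2 and Gm13841 lie far above the line, and 69 members in all lie above it.

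The name gave a parent, the symbol before -ps, for 56 members, and 53 of these had the parent in the table, 49 distinct genes. For all 53 the named parent was also the nearest gene by sequence. Over the 8 libraries log2 CPM of copy and parent correlated with a median Pearson's r of 0.78. Exact permutation over the 40320 pairings of the libraries, adjusted by Benjamini-Hochberg over the 53 pairs, gave 19 pairs an adjusted p under 0.05 by Pearson and 6 by both Pearson and Spearman. Without sIVs replicate 4 the median r was 0.41 and no pair had an adjusted p under 0.05, so the count of 19 depended on this library, while 13 pairs had an unadjusted p under 0.05 in the same exact test. The median r was 0.27 without the 2 libraries farthest from the parent's median. The 6 libraries left allow 720 pairings and a smallest p of 0.00139, which is too large for a single pair to pass the adjustment over 53.

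Rpsa-ps10, a copy of the small-subunit protein gene Rpsa, followed its parent most closely. Pearson's r was 0.99 (exact permutation p = 2.23e-04, adjusted 0.00591) and Spearman's rho 0.98 (p = 3.97e-04, adjusted 0.0210), and r stayed at 0.91 without the 2 farthest libraries. Rps2-ps13, a copy of Rps2, gave r = 0.91 (exact permutation p = 0.00305, adjusted 0.0162) and rho = 0.90 (p = 0.00456, adjusted 0.0403), with r = 0.90 without 2 libraries. Tma7-ps, a copy of a small translation machinery protein gene, gave r = 0.90 (exact permutation p = 0.00146, adjusted 0.0162) and rho = 0.90 (p = 0.00456, adjusted 0.0403), and 0.79 without 2 libraries. At the other end Atp6v0c-ps2 gave r = -0.94 (exact permutation p = 0.0231, adjusted 0.0532) and rho = -0.33 (p = 0.428, adjusted 0.612). Rps10-ps2, which held 89.0% of the counts of its pair with Rps10, gave r = 0.41 (exact permutation p = 0.311, adjusted 0.383) and rho = 0.17 (p = 0.703, adjusted 0.760). Without sIVs replicate 4 r was 0.93 for Rpsa-ps10, 0.67 for Rps2-ps13 and 0.83 for Tma7-ps. It was -0.42 for Atp6v0c-ps2 and, with the sign reversed, -0.45 for Rps10-ps2.

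The copy's share of the pair also varied between libraries. The chi-square per degree of freedom of the 2 by 8 table of counts, which is near 1 where the share is constant within counting noise, had a median of 5.22 over the 53 pairs. It was lowest for Rpl28-ps1, 0.976, whose share of the pair stayed between 4.01% and 5.25%. It was highest for Hspd1-ps3, a copy of the mitochondrial chaperonin gene Hspd1, 36.1, whose share was 11.1% in sIVs replicate 5 and 1.96% to 5.54% in the others. Rpl17-ps10 and Rpl17-ps3 copy the same gene and held 63.5% and 54.0% of their pairs with it. Tpt1-ps3, which equals part of the transcript of Tpt1, the translationally controlled tumour protein, held 6.02%. Of the 49 parents, 24 of which were cytosolic ribosomal protein genes, 46 lay above 0 in log2 fold change, against 51.3% of all genes tested. The parents' median was 0.31, against 0.009 over all genes tested. Without sIVs replicate 4 it was 0.03, against 0.001. None of the parents had an unadjusted p under 0.05 in edgeR's test.

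Between the groups the members took 0.422%, 0.478%, 0.492% and 0.488% of all counts in PBS replicates 1, 3, 4 and 5, a mean of 0.470% ± 0.0325 (SD, n = 4). In sIVs the shares were 0.443%, 0.458%, 0.757% and 0.535%, a mean of 0.548% ± 0.145 (SD, n = 4). The ranges overlapped, and without sIVs replicate 4 the sIVs mean was 0.479% ± 0.0494 (SD, n = 3). Copies of ribosomal protein genes were 34.4% of the members' counts in sIVs replicate 4 and 23.6% to 28.8% in the others.

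**Figure D3:**
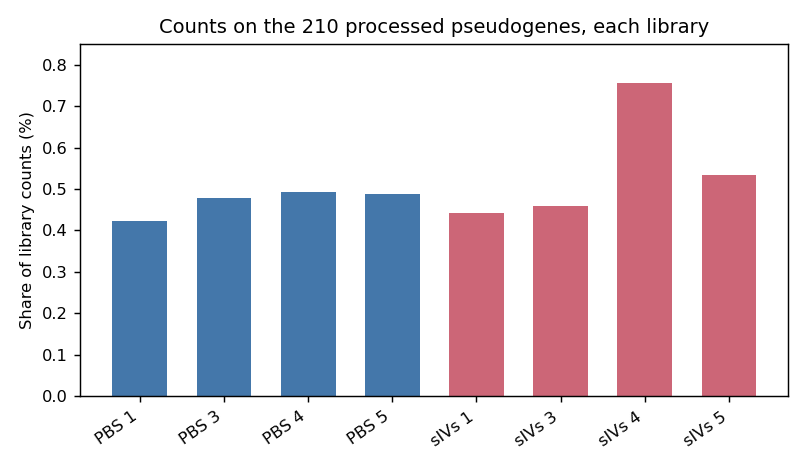
Share of all counts that fell on the 210 processed pseudogenes, in percent, 1 bar per library, PBS in blue and sIVs in red. sIVs replicate 4 reached 0.757% and the other 7 libraries lay between 0.422% and 0.535%.

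No member passed the test between sIVs and PBS. All 210 were among the 17004 genes tested, and edgeR's quasi-likelihood test gave none of them an adjusted p under 0.05, the background over all genes tested being 0%; the lowest adjusted p was 0.810. DESeq2 and limma also called no member. At an unadjusted p under 0.05 edgeR had 17 members, 8.10%, against a background of 1.50% of all genes. Of these 15 were higher in sIVs, 7.14% against 1.04%, and 2 were lower, 0.952% against 0.459%. Without sIVs replicate 4 there were 8 members, 3.81%, against 1.14%. The CPM of the groups did not overlap in 9 members, 4.29% against 2.01%, with 5 higher in sIVs, 2.38% against 1.08%, and 4 lower, 1.90% against 0.929%. The log2 fold change was positive for 155 members, 73.8% against 51.3%, with a median of 0.25 against 0.009. Without sIVs replicate 4 it was positive for 120, 57.1% against 50.3%, and the median was 0.04 against 0.001.

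Gm12918, the Rpl13 copy, had 1.74, 2.26, 2.22 and 2.23 CPM in PBS and 3.37, 3.98, 9.63 and 3.09 CPM in sIVs, so every sIVs library was above every PBS library. The log2 fold change was 1.25 with a standard error of 0.38 (edgeR adjusted p = 0.810) and 0.71 without sIVs replicate 4. It held 1.01% of the counts it shared with Rpl13, whose mean was 348 CPM. Gm14539 equals part of Usmg5, a small subunit of the mitochondrial ATP synthase, over 174 bases. It had 1.44, 1.39, 2.35 and 1.87 CPM in PBS and 2.01, 2.98, 10.5 and 4.74 CPM in sIVs, and the groups overlapped at 1 library. Its log2 fold change was 1.52 with a standard error of 0.49 (edgeR adjusted p = 0.810) and 0.88 without sIVs replicate 4.

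Gm7353 copies Zc3h3, a zinc finger protein of messenger RNA processing, and had 7.63, 6.83, 7.79 and 7.10 CPM in PBS and 11.0, 9.52, 13.2 and 8.39 CPM in sIVs without overlap. The log2 fold change was 0.52 with a standard error of 0.18 (edgeR adjusted p = 0.810) and 0.39 without sIVs replicate 4. Itpa-ps1 copies the gene of inosine triphosphatase, which clears damaged purine nucleotides. It had 18.7, 22.0, 22.2 and 21.4 CPM in PBS and 26.9, 22.8, 39.4 and 26.8 CPM in sIVs, also without overlap, with a log2 fold change of 0.46 that was 0.27 without sIVs replicate 4. Gm5900 copies Lamtor3, a scaffold protein of lysosomal signalling, and had 4.11 to 5.54 CPM in PBS and 5.61 to 8.25 CPM in sIVs.

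Rab11b-ps2 was one of 2 members with a negative log2 fold change and an unadjusted p under 0.05. It copies Rab11b, a GTPase of recycling endosomes, and had 15.5, 13.9, 15.3 and 16.6 CPM in PBS and 12.1, 12.7, 12.7 and 11.6 CPM in sIVs. The groups did not overlap, and the log2 fold change of -0.32 with a standard error of 0.12 (edgeR adjusted p = 0.810) was -0.33 without sIVs replicate 4. Its parent Rab11b had a log2 fold change of 0.22 with a standard error of 0.15. The other was Gm13414, a copy of the co-chaperone gene Dnajb6, with 3.43 to 4.76 CPM in PBS and 2.06 to 3.27 CPM in sIVs and a log2 fold change of -0.56, which was -0.63 without sIVs replicate 4. The remaining members among the 10 smallest p were Gm10443, Gm11702 and Gm15920, with log2 fold changes of 0.89, 0.95 and 0.60 that were 0.51, 0.33 and 0.31 without sIVs replicate 4. They copy Rps28, Dctn1, a subunit of the dynactin motor complex, and Ndufa12, a subunit of respiratory complex I.

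**Figure D4:**
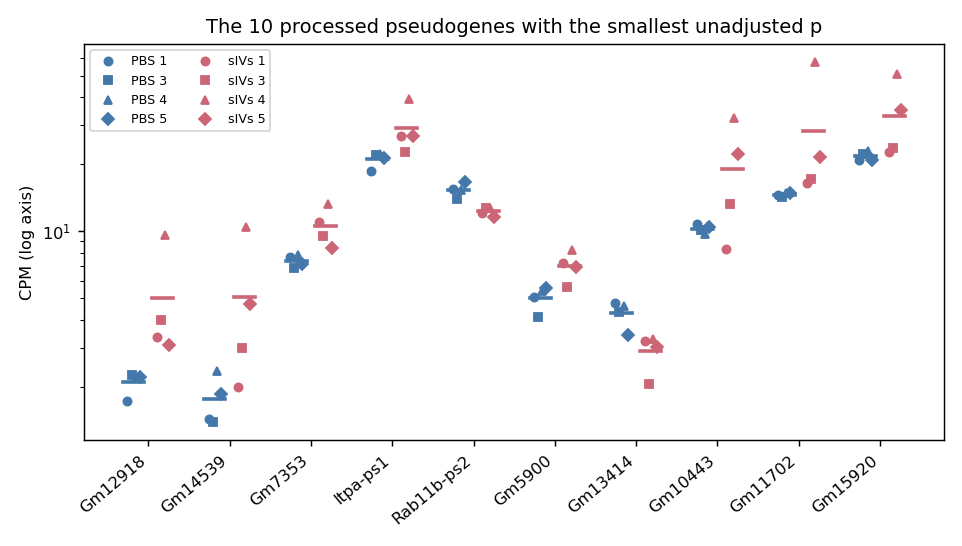
CPM on a log axis of the 10 processed pseudogenes with the smallest unadjusted p, 1 point per library and a bar at each group's mean, PBS in blue and sIVs in red. Rab11b-ps2 and Gm13414 are lower in sIVs, and in Gm12918, Gm14539 and Gm11702 sIVs replicate 4 lies far above the other 3 sIVs libraries, at 9.63, 10.5 and 57.5 CPM.

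The members' clearest pattern across libraries was sIVs replicate 4. Of the 210, 133 had their highest level there, 63.3% against 35.7% of all genes tested, and 37 had their lowest there, 17.6% against 35.4%. The ratio of the level in this library to the mean of the other 7 had a median of 1.62 over the members and 0.987 over all genes tested. Copies of ribosomal protein genes stood at a median ratio of 2.26, with 56 of 60 highest in this library, and their nearest genes at 2.19. Copies of mitochondrial energy genes stood at 2.59, with 11 of 11 highest there, and their nearest genes at 2.05. That count holds only for the genes listed under this family, a list that was not planned. Copies of RNA binding and splicing genes stood at 0.719, with 7 of 12 lowest there, while their nearest genes stood at 1.10. The 95 members on none of the family lists stood at 1.13, with 38 highest and 29 lowest there, and their nearest genes at 1.33. The ratio of a member and the ratio of its nearest gene went together across 209 pairs with a Spearman's rho of 0.62, a description over pairs that share a library and, in part, reads. In length the shorter members had a median ratio of 1.99 and the longer 1.23, and rho between ratio and length was -0.45 over the members and -0.44 over all genes tested.

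**Figure D5:**
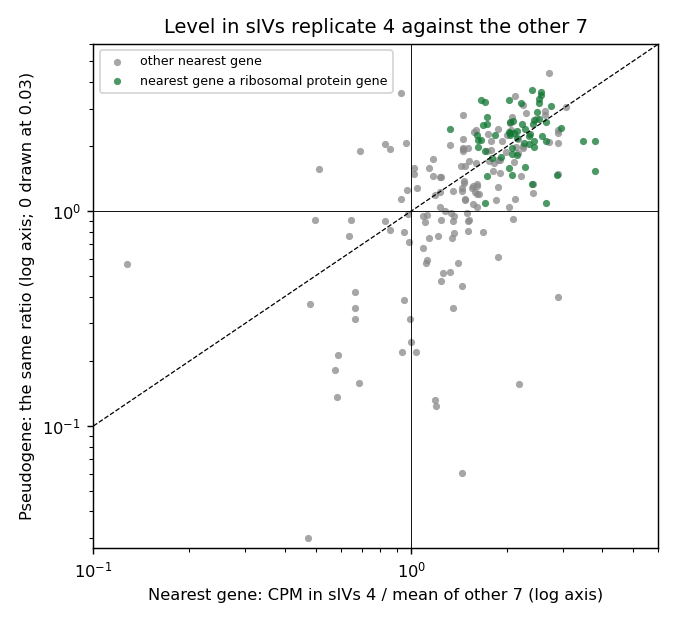
Level in sIVs replicate 4 divided by the mean of the other 7 libraries, for each processed pseudogene (vertical, log axis) and its nearest gene (horizontal, log axis), with members nearest a ribosomal protein gene in green and the dashed line at equality. The green points have median ratios of 2.26 for the pseudogene and 2.19 for the gene. Of the 210 pseudogenes 22 lie below 0.5, a share near that of all genes tested, 2115 of 17004.

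The 15 members under 95% identity varied widely in this library, which is a description without a test. Their ratios ran from 0 to 1.55 with a median of 0.449, against 1.67 for members at 99% identity or more and 1.90 for those between 95 and 99%. Length differed too, and over all members the ratio fell with length (rho -0.45). The shortest, Gm12276, Gm44856, Gm37904 and AA413626 at 301 to 494 bases, had ratios of 1.10 to 1.55. All longer ones except AA414768 (1257 bases, 1.52) were lower there than the mean of the other libraries. Identity and length were not tested apart. Of the 15, 3 were highest in sIVs replicate 4 and 8 lowest. Gm18609, matched to Arhgap20 at 67.6% over only 20.9% of its length, had 0 counts in sIVs replicate 4 and 39 to 123 in the others. A count of 0 allows up to 3 counts, or 0.196 CPM, so this library was at least 29.6-fold lower than the mean of the others. Gm17875, whose closest match was the beta-actin gene Actb at 69.7% identity, had 0.458 CPM there against 5.16 to 11.7 CPM. Gm5466, nearest to the poly(A) binding protein gene Pabpc4 at 90.2%, had 1.83 CPM against 6.12 to 22.7 CPM, and Gm3257, nearest to the splicing protein gene Snrpb, 0.851 CPM against 1.99 to 8.01 CPM. Rbpj-ps3 shared this pattern at 99.7% identity to Rbpj, the DNA binding factor of Notch signalling, with 1.11 CPM against 6.81 to 11.3 CPM. These 5 were the members with the largest ratio of highest to lowest level.

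By position, 75 members overlapped another gene, 34 on the same strand and 42 on the opposite strand, and 70 lay in an intron. Whether counting used strand is not given in the sources used here, so reads of an overlapping gene on either strand cannot be told apart from reads of the member. The overlapping gene had the higher mean CPM for 40 of the 75 members. Gm13394, at a mean of 826 CPM, lay in an intron of Cfap77, which had a mean of 0.143 CPM. The median ratio in sIVs replicate 4 was 1.79 for members with a same-strand overlap, 1.74 with an opposite-strand overlap only and 1.57 with none. Gm12191 lay whole in an intron of Cnot6, a subunit of the deadenylase complex, and was 2.11 times as high in sIVs replicate 4 as in the others, while Cnot6 was at 0.845. Itpa-ps1 lay in Ttc17 with ratios of 1.72 and 0.669 and Gm15920 in Rabgef1 with 2.11 and 0.907. Gm11702, only 69 bases long and so shorter than a read, lay in Grb2 with ratios of 3.55 and 1.25.

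On the opposite strand Rpl21-ps15 lay in Wnk3 with ratios of 2.40 and 0.529, Mpc1-ps in Zfp839 with 1.58 and 0.745, and Gm10241, a Sumo2 copy, in Yeats2 with 1.23 and 0.609. Gm12276, a diverged copy of the cytochrome c gene Cycs at 81.9% identity, lay in Ncor1 with 1.55 and 0.422. Gm14117, identical to part of Atpaf1, lay in Ralgapa2 with 0.952 and 0.488. Over all 59 pairs of a member and a tested gene that overlaps it, the member's ratio was the higher in 45 and the lower in 14, with medians of 1.58 and 0.793. Rbpj-ps3 and Gm17875 were among the 14, at 0.123 against 1.08 and at 0.0601 against 0.532 for the gene around them. Over the 14 the ratio of the overlapping gene ran from 0.170 to 1.95. Psmd13, around Gm15542, was at 1.93 against 0.982 for the member, and Lyrm4, around Tmed10-ps, at 1.95 against 1.05. For some of the 14 the overlapping gene was low there too. Gm3257 was at 0.157 and A330076H08Rik, the gene around it, at 0.230. Gm18609 was at 0 and Gm10010, which overlaps 29.4% of it on the opposite strand, at 0.170.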

How the data were processed

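The authors deposited raw counts per gene, and FPKM made from the same counts, for 8 retina libraries on mm10, per the submitters' processing notes. The count table also holds gene annotation (other columns deposited by the authors: position, strand, length, biotype). Not given in the sources used here: aligner, counter, strand setting, treatment of reads with several matches. Genes kept by filterByExpr (17004 of 54532) were tested with edgeR 4.0.16 (R 4.3.3), TMM scaling, quasi-likelihood F test, group as the only term, two-sided, Benjamini-Hochberg at 0.05. Standard errors are the absolute log2 fold change over the square root of F. CPM use the TMM-scaled library sizes, and log2 CPM a prior count of 2. Alternatives were DESeq2 1.42.0, limma 3.58.1 (voom with sample quality weights, log2(FPKM + 1) and log2(FPKM + 0.1)), other scaling, other filters, leaving out single libraries and a replicate block. The pipeline was tested on simulated counts. Members were matched to GENCODE M21 protein-coding transcripts with blastn 2.17.0 (e-value 1e-20). Correlations used exact permutation (scipy 1.17.1).

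Between libraries of a group the chi-square per degree of freedom was at least 6.26, so none was a duplicate. The members and lists were chosen with earlier results of these data known, and the members by the same counts reported here. The text names the 10 members of highest mean CPM, the 10 of smallest p, the 8 highest with a named parent, the 5 highest in each strand class overlapping a gene of higher CPM, the 3 on each side of the threshold, the 5 of largest ratio of highest to lowest CPM, and any past the adjusted threshold in any alternative (0 members). Others named, such as Gm9522, Gm13841, Rpsa-ps10, Rpl28-ps1 and Hspd1-ps3, were chosen after their values were seen. An overlap that the rule names is not reported here.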

Additional observations from a re-analysis of the deposited data

Results flagged for a closer look

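In 78 groups of 4 libraries (38 named members and the members' share of counts, in each treatment group) 1 library lay far outside the other 3 in 5 cases, where chance gives about 1 in 20. The 5 cases are near that rate. The rate is only a guide, because the groups share libraries and some members were named for their p or range in these values. Of the 5 cases, 3 concern sIVs replicate 4. Gm13394 was at 1160 CPM in sIVs replicate 4 and at 782 to 801 CPM in the other sIVs libraries. Gm12918 was at 9.63 CPM there and at 3.09 to 3.98 CPM in the others. Gm11702 was at 57.5 CPM there and at 16.4 to 21.5 CPM in the others. In PBS replicate 1 Gm12918 was low, 1.74 CPM against 2.22 to 2.26 CPM. Gm10241 was low in sIVs replicate 5, 24.3 CPM against 36.5 to 38.5 CPM.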

How the results depend on the processing

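No alternative gave any gene or member an adjusted p under 0.05, and the lowest adjusted p of a member ranged from 0.577 without sIVs replicate 1 to 1.000 without sIVs replicate 4 and with voom quality weights. The 17 members with an unadjusted p under 0.05 in edgeR became 5 (without PBS replicate 3) to 35 (without sIVs replicate 3) with 1 library left out, where the count over all genes went from 255 to 136 and 958. There were 11 with limma on log2(FPKM + 1), beside 306 of all genes, and 11 on log2(FPKM + 0.1), beside 273. DESeq2 gave 22, beside 322, and leaving out the filter 25, beside 803. All 15 log2 fold changes recomputed kept their sign in all alternatives, except that voom with quality weights gave -0.0019 for Gm15772 and -0.0047 for Rpl3-ps1. The members' median log2 fold change stayed positive, from 0.02 with voom quality weights to 0.34. The rule gave 332 members at 200 counts and 126 at 800. The 19 pairs of copy and parent with an adjusted p under 0.05 became 0 to 20 with 1 library left out (0 without sIVs replicate 4, 4 without sIVs replicate 5, 11 without PBS replicate 1) and 0 without the 2 farthest libraries, where a single pair could not pass. The members' share of counts, sIVs minus PBS, was 0.0783 percentage points and 0.00866 without sIVs replicate 4. Same-numbered libraries did not all deviate together (r of 0.596, 0.025, 0.227 and 0.514 for numbers 1, 3, 4 and 5, and in each group 3 of 4 libraries correlated best with their own number, PBS replicate 3 best with sIVs replicate 5, 0.256). The labels do not say what the numbers mark, and they were not taken as pairing. With a replicate block 22 members and 588 of all genes, against 255, had an unadjusted p under 0.05, and no adjusted p passed. Depth limits the members near 400 counts most, since that sum is spread over 8 libraries.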

Other observations

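A pair of members stood apart in a library other than sIVs replicate 4, both chosen after their values were seen. Gm37904, whose closest protein-coding match was the large-subunit protein gene Rpl12 at 73.7% identity, had 1.06 CPM in PBS replicate 1 and 4.94 to 7.22 CPM in the other 7 libraries. Hspd1-ps3 had 14.0 CPM in sIVs replicate 5 and 2.75 to 6.60 CPM in the other 7.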
